A study of Mus musculus and Bos taurus with 26 samples.

Results

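The Wnt and Fgf genes are the 2 large families of secreted growth factors with which the embryo will later pattern its tissues. Their members were taken here by symbol alone, with no filter on level: 19 Wnt and 22 Fgf genes, together 41 of the 27988 genes in the mouse table, and 19 WNT and 20 FGF genes, together 39 of the 21577 genes in the bovine table. A Wnt protein is lipid-modified by Porcn, carried to the cell surface by Wls, and binds a Frizzled receptor with Lrp5 or Lrp6, which stabilises β-catenin, or with Ror or Ryk receptors, which act without it. Most Fgf proteins are secreted and bind a receptor tyrosine kinase of the Fgfr family together with heparan sulphate, which activates the MAP kinase pathway, and in the mouse blastocyst Fgf4 from the epiblast lineage sustains primitive endoderm and trophectoderm. The endocrine members Fgf15, Fgf21 and Fgf23 need a Klotho co-receptor instead, and Fgf11, Fgf12, Fgf13 and Fgf14 are intracellular homologous factors that are not ligands.

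The study measured polyA RNA in whole embryos around zygotic genome activation, in 22 mouse and 4 bovine libraries, with 2 libraries in each of 13 groups. Mouse late 2-cell embryos, taken 36 hours after fertilization, had as zygotes received water, mRNA of wild-type (WT) Hdac1 or Hdac2, or mRNA of an Hdac1 or Hdac2 mutant, or had been grown in KSOM medium with DMSO or treated with FK228 at 50 nM. FK228 is romidepsin, a drug that blocks the class of histone deacetylases to which Hdac1 and Hdac2 belong. A further pair of late groups received Hdac1 mutant mRNA as zygotes and then either water or mRNA of Kdm5b, a histone H3K4 demethylase, in both blastomeres at the early 2-cell stage. Early 2-cell embryos, 24 hours after fertilization, carried Hdac1 WT or Hdac1 mutant mRNA. Bovine embryos at the 8/16-cell stage, 72 hours after fertilization, had been cultured in BO-IVC medium with DMSO or treated with 50 nM FK228 from the zygote stage. The labels do not give the mutations or say whether replicates came from separate cultures, so p-values measure only the spread between libraries, which may be technical.

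Values are FPKM, fragments scaled to transcript length and library size, and differences are on the log2(FPKM + 1) scale with their standard error (SE) from limma, 2 libraries against 2, with Benjamini-Hochberg adjustment over all genes tested. A member was called when its adjusted p was under 0.05. Each mouse library had 10704 to 14554 genes at 1 FPKM or more, replicates correlated at r = 0.955 to 0.989 across genes, and relative depth estimated from the smallest values ran from 0.665 to 1.31 times the middle library. The number of such genes was 11284 to 12105 in late control libraries. It was 13474 to 14554 in late mutant and FK228 libraries without Kdm5b. Hdac1 stood at 2707 to 7253 FPKM in the libraries given Hdac1 mRNA only and at 805 to 917 in those injected a second time, against 47.7 to 92.2 FPKM in the other groups. Late, Hdac1 was at 2707 and 2960 FPKM with Hdac1 WT and 4952 and 4612 with the Hdac1 mutant. Early, it was at 7253 and 4519 with WT and 4007 and 2952 with the mutant. Hdac2 was at 1775 and 1462 FPKM with Hdac2 WT and 2443 and 2292 with the Hdac2 mutant. The part of these unequal levels was not tested. Kdm5b stood at 594 and 638 FPKM where its mRNA was injected. The 6 markers of the mouse 2-cell embryo summed to 80.4 to 477 FPKM and none was at 0 in both libraries of a group. Among genes of other cell types, the summed level of 8 blood markers was 3.16 to 15.4 FPKM in the late control libraries and 103 to 186 in the late mutant and FK228 libraries. The α-globin genes Hba-a1 and Hba-a2, Cd74 and Lyz2 were called higher in all 3 comparisons of mutant or FK228, and the β-globin genes Hbb-bs and Hbb-bt were at 0 in all of the mutant groups and in FK228 replicate 1, with 0.241 and 0.332 FPKM in FK228 replicate 2. The 12 cumulus and granulosa cell markers summed to 1.98 to 8.87 FPKM in those controls and to 7.14 to 23 in the mutant and FK228 libraries, with Fshr or Cd44 at 0 in each. The 7 sperm markers summed to 0 to 1.89 FPKM in the same controls and 1.4 to 8.45 in the mutant and FK228 libraries. These ranges overlapped. Of 2 sperm markers tested, 1 was called higher with mutant Hdac1 and 0 with mutant Hdac2 or FK228. The part of these 3 marker lists in the results below was not tested. In whole embryos, fewer cells with a transcript and less of it per cell cannot be told apart.

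In control embryos at the late 2-cell stage the Wnt family was close to silent. Over the 8 libraries that received water, Hdac1 WT, Hdac2 WT or DMSO, 8 members had a median of at least 1 FPKM, and 2 of these were Wnt genes, Wnt9b and Wnt11, at medians of 1.18 and 1.01 FPKM. Fgf4, Fgf1, Fgf9 and Fgf18 led at medians of 15.8, 13.2, 7.84 and 7.72 FPKM. In the 8 libraries that received Hdac1 or Hdac2 mutant mRNA, or FK228, 29 members had a median of at least 1 FPKM and 14 of these were Wnt genes. The summed level of the 19 Wnt genes was 1.95 to 13.4 FPKM in the 8 control libraries and 80 to 173 FPKM in the 8 mutant and FK228 libraries, which did not overlap. The summed level of the 22 Fgf genes was 46.4 to 68.1 FPKM in the controls and 83.8 to 162 FPKM in the others.

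**Figure D1:**
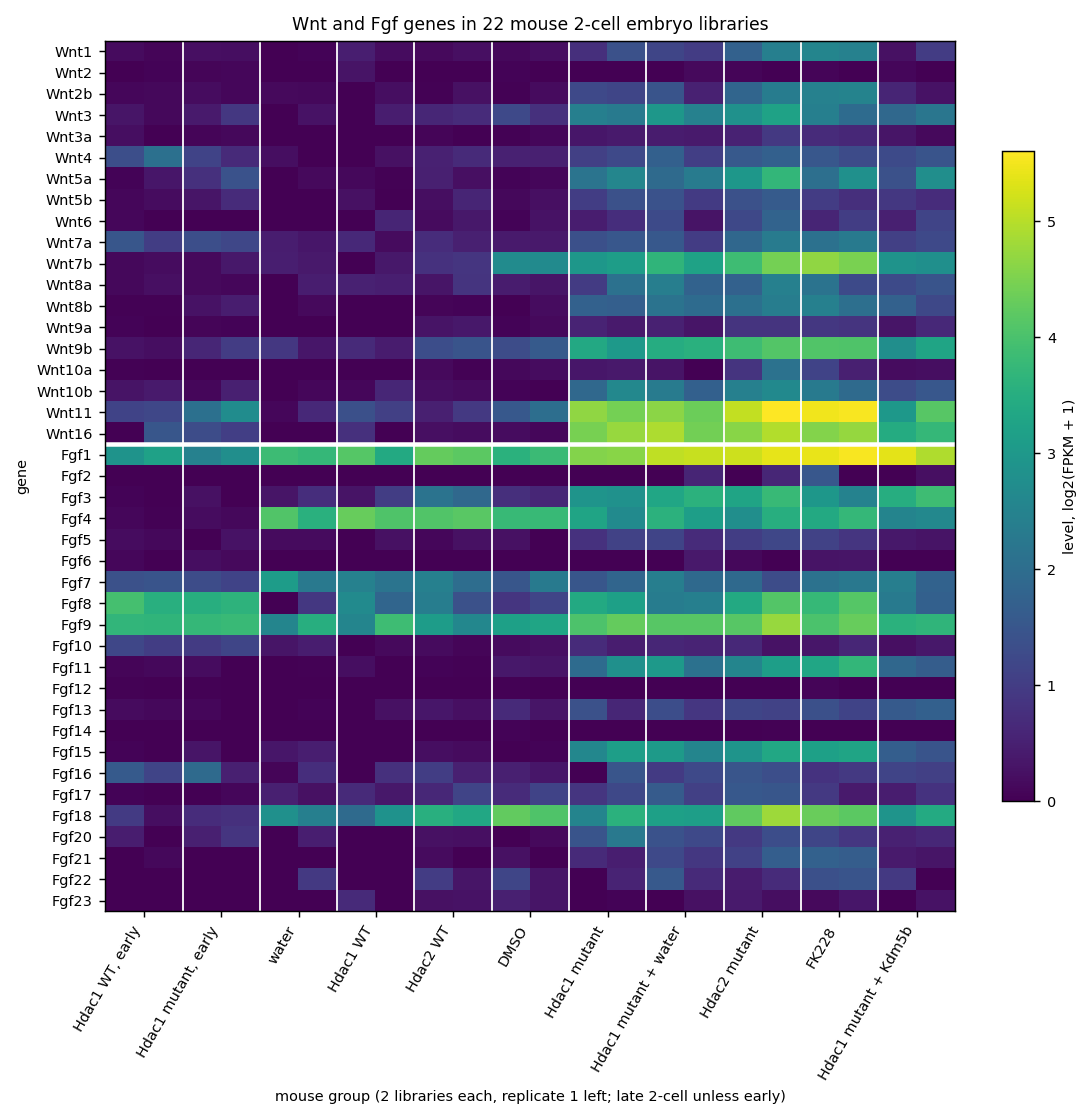
Level of each of the 41 members, as log2(FPKM + 1) in colour, in each of 22 mouse libraries (columns, 2 per group), with Wnt genes above the white line and Fgf genes below it. Most Wnt rows are dark in the early and control columns and bright in the late mutant and FK228 columns, while Fgf4 is bright in late controls and dark in the early groups.

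Most members were higher at the late 2-cell stage with either mutant mRNA or with FK228, in 3 comparisons that share no library. With the Hdac1 mutant against Hdac1 WT, limma called 25 members higher and 1 lower of the 33 that passed the filter of 1 FPKM in 2 libraries, while 30.5% of all tested genes were called higher and 21.6% lower. With the Hdac2 mutant against Hdac2 WT, 27 were called higher and 1 lower, against 30.8% and 22.2% of all genes. With FK228 against DMSO, 24 were called higher and 0 lower, against 31% and 26.3% of all genes, and 25 of the 33 were at an unadjusted p under 0.05, as were 61.4% of all genes. In all 3 comparisons the same 24 members were called higher, 14 Wnt and 10 Fgf genes, and 21.1% of all tested genes were called higher in all 3. The filter favours such members. Of the 33, 17 passed it only through late mutant or FK228 libraries, including those with Kdm5b. Fewer than 2 other libraries reached 1 FPKM for them. These were Wnt1, Wnt2b, Wnt3, Wnt5a, Wnt5b, Wnt6, Wnt8a, Wnt8b, Wnt10a and Wnt10b, and Fgf5, Fgf11, Fgf13, Fgf15, Fgf20, Fgf21 and Fgf22. The filter itself favoured a higher level there, and their p-values cannot be read apart from it.

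Counts over all members, without a filter, do not depend on that. With mutant Hdac1, both libraries stood above both WT libraries for 29 of 41 members, 17 of them among the 19 Wnt genes, and below them for 2, beside 29.6% and 17.9% of all 27988 genes. With mutant Hdac2, 32 members stood above and 2 below, beside 36.9% and 21.4% of all genes, and with FK228, 32 stood above and 1 below, beside 36.3% and 23.4%. The median difference over the 41 members was 0.82, 1.10 and 0.91 on the log2(FPKM + 1) scale in these 3 comparisons, where the median over all genes was 0.02, 0.04 and 0.03. Wnt genes had the larger median with mutant Hdac1, 1.07 against 0.54 for Fgf genes.

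**Figure D2:**
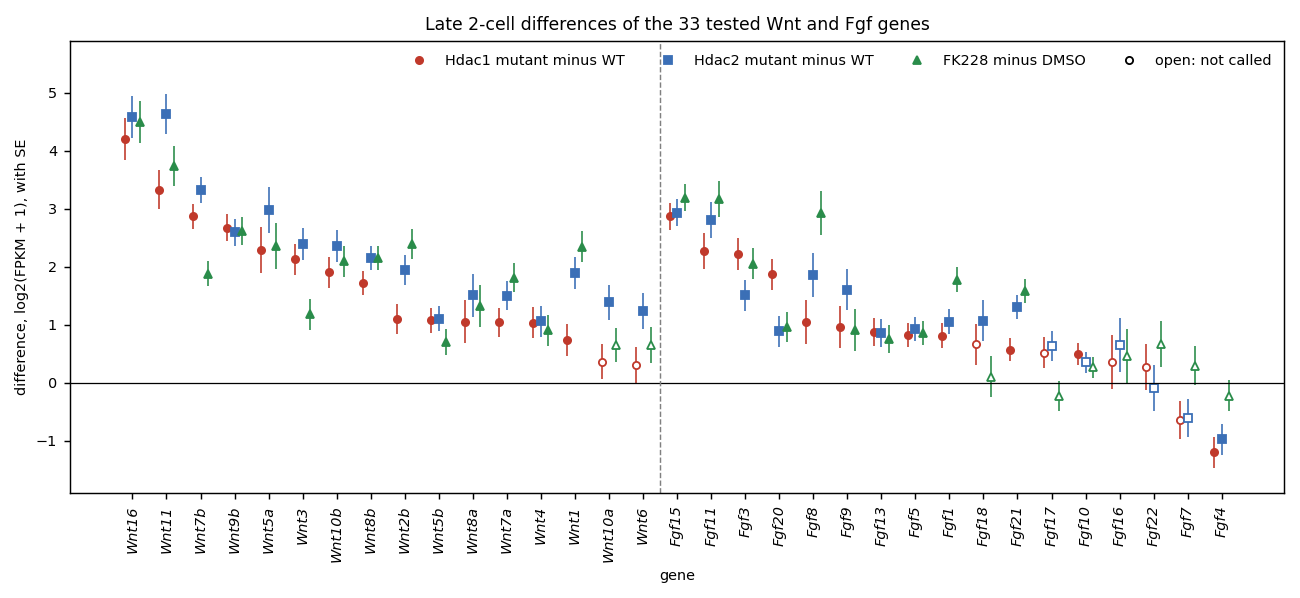
Difference of each of the 33 tested members on the log2(FPKM + 1) scale, with its SE, in the Hdac1 mutant, Hdac2 mutant and FK228 comparisons at the late 2-cell stage; Wnt genes stand left of the dashed line, and filled symbols passed an adjusted p of 0.05. Wnt16 and Wnt11 stand highest, and Fgf4 is below 0 in all 3 and filled in 2 of them, the lowest with either mutant and just above Fgf17 with FK228.

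Wnt16, a Wnt best known from bone and blood stem cell development, had the largest difference with mutant Hdac1 and with FK228, and the second largest, after Wnt11, with mutant Hdac2. It was at 0.722 and 0 FPKM in the Hdac1 WT libraries and 20.9 and 25.7 in the Hdac1 mutant, at 0.167 and 0.134 with Hdac2 WT against 23.5 and 30 with the Hdac2 mutant, and at 0.135 and 0.0677 with DMSO against 22.5 and 25.3 with FK228. Each mutant or FK228 library was far above every control library, and the 3 groups overlapped one another. The differences were 4.20 ± 0.37, 4.58 ± 0.37 and 4.50 ± 0.37 on the log2(FPKM + 1) scale, with limma adjusted p = 2.02e-07, 7.23e-08 and 5.75e-08. Wnt11, which acts mostly without β-catenin in cell movements of gastrulation, went from 1.58 and 1.1 to 24.4 and 20.6 FPKM with mutant Hdac1, from 0.408 and 0.914 to 33.1 and 47.7 with mutant Hdac2 and from 1.92 and 3.05 to 43.9 and 46 with FK228. Its highest control library, DMSO replicate 2, stood well below its lowest mutant library, and the differences were 3.33 ± 0.34, 4.63 ± 0.34 and 3.74 ± 0.34 (limma adjusted p = 9.26e-07, 3.18e-08 and 1.78e-07).

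The promoters of these 2 genes, as windows of 300 bases that reach from upstream to 50 bases past the RefSeq start (GRCm38.p6, plus strand), are printed because both genes rose from low control levels, with each CG dinucleotide in capitals. That of Wnt16 lies at chr6:22287977-22288276 on chromosome 6 and holds 10 CG, and that of Wnt11 lies at chr7:98834862-98835161 on chromosome 7 and holds 45. Wnt11 has 2 promoters listed, and the most upstream is shown.
Wnt16: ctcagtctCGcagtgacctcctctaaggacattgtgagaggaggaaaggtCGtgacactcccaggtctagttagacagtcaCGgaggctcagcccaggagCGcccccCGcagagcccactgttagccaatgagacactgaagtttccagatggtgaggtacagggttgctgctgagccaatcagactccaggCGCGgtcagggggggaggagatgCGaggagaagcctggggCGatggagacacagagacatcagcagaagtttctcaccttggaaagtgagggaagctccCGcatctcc
Wnt11: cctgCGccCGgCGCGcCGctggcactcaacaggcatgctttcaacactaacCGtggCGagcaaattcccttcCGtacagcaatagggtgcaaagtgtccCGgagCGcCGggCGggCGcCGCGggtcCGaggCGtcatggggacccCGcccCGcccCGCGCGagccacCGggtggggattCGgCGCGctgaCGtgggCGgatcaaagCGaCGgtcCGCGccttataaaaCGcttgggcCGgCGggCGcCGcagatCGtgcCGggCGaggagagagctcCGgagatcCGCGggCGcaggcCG
Wnt11 has the CG-rich promoter of the pair, and the median over the 27025 genes of the promoter table was 7 CG. Of the 41 mouse members, 31 matched that table. Their windows held a median of 24 CG (31 for the 15 Wnt and 12 for the 16 Fgf genes), and 83.9% held at least 10 CG, beside 44% of all genes. The motif CG was searched as the letters CG, which read the same on both strands, and 94.2% of all windows held at least 1. Of the 24 members called higher in all 3 comparisons, 17 matched the promoter table. These 17 held a median of 24 CG and the other 14 a median of 21. At least 10 CG were held by 76.5% of the 17 and 92.9% of the other 14. Those 14 include the 8 members that did not pass the filter and were not tested.

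A second set of Wnt genes stood at 2.81 to 24.4 FPKM in the 8 mutant and FK228 libraries. Wnt7b, which patterns lung and placenta, went from 0 and 0.276 to 6.84 and 7.75 FPKM with mutant Hdac1, from 0.732 and 0.812 to 13.5 and 20.6 with mutant Hdac2 and from 5.51 and 5.42 to 24.4 and 21.4 with FK228. DMSO embryos stood apart from the other controls here, near the level of the Hdac1 mutant, and the differences were 2.87 ± 0.22, 3.32 ± 0.22 and 1.88 ± 0.22. Wnt9b, which induces kidney tubules, went from 0.579 and 0.338 to 9.45 and 7.23 FPKM with mutant Hdac1, from 1.5 and 1.73 to 13.5 and 16.1 with mutant Hdac2 and from 1.48 and 2.01 to 15.9 and 15.6 with FK228, without overlap in any of the 3 comparisons. Wnt5a, the main β-catenin-independent Wnt of limb and axis outgrowth, went from 0.0809 and 0.0215 to 3.43 and 4.93 FPKM with mutant Hdac1, from 0.401 and 0.167 to 6.79 and 12.1 with mutant Hdac2 and from 0.0331 and 0.0737 to 3.16 and 6.05 with FK228, again without overlap. The differences were 2.67 ± 0.24, 2.59 ± 0.24 and 2.62 ± 0.24 for Wnt9b and 2.29 ± 0.39, 2.98 ± 0.39 and 2.36 ± 0.39 for Wnt5a, and limma adjusted p was at most 0.000157 for either gene. Wnt3, required for the primitive streak, went from 0 and 0.355 to 4.33 and 3.85 FPKM with mutant Hdac1, from 0.512 and 0.606 to 6.17 and 8.37 with mutant Hdac2 and from 1.36 and 0.709 to 4.35 and 2.87 with FK228. Its FK228 difference of 1.18 ± 0.27 was the smallest of the 3, where DMSO replicate 1 was the highest control library. The filter favoured higher calls for Wnt3 and Wnt5a.

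Lower in level, 4 further Wnt genes were also called higher in all 3 comparisons, and the filter favoured such calls for each of them. Wnt10b went from 0.0695 and 0.521 to 2.74 and 5.11 FPKM with mutant Hdac1, from 0.154 and 0.128 to 4.45 and 5.29 with mutant Hdac2 and from 0.0318 and 0 to 3.94 and 2.81 with FK228. Wnt8b, a forebrain Wnt, was listed at 0 in both Hdac1 WT libraries and stood at 2.34 and 2.25 FPKM in the Hdac1 mutant (limma adjusted p = 4.93e-06). It went from 0.0487 and 0.0406 to 3.19 and 4.16 FPKM with mutant Hdac2 and from 0 and 0.14 to 4.47 and 3.14 with FK228. No library of either gene overlapped between the groups compared. Wnt1, the midbrain organiser Wnt, went from 0.391 and 0.134 to 0.682 and 1.61 FPKM with mutant Hdac1, from 0.107 and 0.178 to 2.34 and 4.39 with mutant Hdac2 and from 0.0885 and 0.147 to 4.87 and 4.51 with FK228. Wnt2b went from 0 and 0.151 to 1.36 and 1.25 FPKM with mutant Hdac1, from 0.0229 and 0.191 to 2.54 and 4.14 with mutant Hdac2 and from 0.019 and 0.113 to 4.55 and 4.69 with FK228. Both reached their highest levels with FK228 and their lowest with the Hdac1 mutant. The Hdac1 call of Wnt1 was lost, with a limma adjusted p of 0.282 without Hdac1 mutant replicate 2 and 0.167 without Hdac1 WT replicate 2.

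Wnt7a, Wnt8a, Wnt5b and Wnt4 reached at most 4.45 FPKM in these libraries. Wnt7a went from 0.566 and 0.123 to 1.58 and 1.89 FPKM with mutant Hdac1, from 0.625 and 0.413 to 2.65 and 4.06 with mutant Hdac2 and from 0.323 and 0.3 to 3.29 and 3.97 with FK228. Wnt8a, an early posterior Wnt, went from 0.436 and 0.376 to 0.978 and 3.29 FPKM with mutant Hdac1, from 0.255 and 0.8 to 2.35 and 4.45 with mutant Hdac2 and from 0.335 and 0.25 to 3.38 and 1.39 with FK228. Wnt5b went from 0.199 and 0 to 1.04 and 1.61 FPKM with mutant Hdac1, from 0.164 and 0.485 to 1.6 and 2.07 with mutant Hdac2 and from 0.0902 and 0.167 to 0.987 and 0.69 with FK228. In each of the 3 genes every mutant or FK228 library was above both of its control libraries. Wnt4, needed for the female reproductive tract and kidney, went from 0 and 0.183 to 1.09 and 1.37 FPKM with mutant Hdac1, from 0.424 and 0.58 to 1.96 and 2.3 with mutant Hdac2 and from 0.431 and 0.397 to 1.87 and 1.44 with FK228, without overlap. The 12 differences of these 4 genes lay between 0.70 and 1.81. Some of these calls rest on single libraries. With mutant Hdac1, limma adjusted p became 0.321 without Hdac1 mutant replicate 2, 0.07 without Hdac1 WT replicate 1 and 0.0846 without Hdac1 WT replicate 2 for Wnt8a. With FK228 it became 0.0678 without DMSO replicate 1 and 0.0876 without FK228 replicate 1 for Wnt5b, 0.0948 without FK228 replicate 1 for Wnt8a and 0.0636 without FK228 replicate 1 for Wnt4.

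Wnt6 and Wnt10a, which lie next to each other on chromosome 1, were called with mutant Hdac2 and with neither mutant Hdac1 nor FK228. Wnt6 went from 0 and 0.501 to 0.373 and 0.661 FPKM with mutant Hdac1, from 0.117 and 0.276 to 1.32 and 2.42 with mutant Hdac2 and from 0.0344 and 0.206 to 0.506 and 1.03 with FK228, with overlap for the Hdac1 mutant. Wnt10a was listed at 0 in both Hdac1 WT libraries and stood at 0.262 and 0.308 FPKM in the Hdac1 mutant, while it went from 0.103 and 0.0285 to 0.788 and 3.35 with mutant Hdac2 and from 0.085 and 0.143 to 1.18 and 0.4 with FK228. Hdac2 mutant replicate 2 was the highest library for both, and the filter favoured higher calls for both. Their Hdac2 differences were 1.24 ± 0.31 and 1.39 ± 0.30 (limma adjusted p = 0.00343 and 0.00108), and without Hdac2 mutant replicate 2 the value for Wnt6 was 0.0511. The Hdac1 and Hdac2 effects did not pass a test of their difference for any of the 33 members by limma, with 6 at an unadjusted p under 0.05, beside 0.0404% and 0.0635% of all genes called and 9.56% at such a p. Wnt2, Wnt3a and Wnt9a did not pass the filter, with highest libraries of 0.231, 0.9 and 0.876 FPKM. Wnt3a and Wnt9a nonetheless stood higher in both libraries of each mutant or FK228 group than in both controls, for example at 0.041 and 0.102 FPKM in DMSO and 0.876 and 0.793 in FK228 for Wnt9a.

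Among the Fgf genes, Fgf4 was the one that limma called lower. It was at 18.8 and 15.7 FPKM in the Hdac1 WT libraries and 8.73 and 5.42 in the Hdac1 mutant, at 15.9 and 17.1 with Hdac2 WT against 5.87 and 10.5 with the Hdac2 mutant, and at 12.7 and 12.8 with DMSO against 9.53 and 12.2 with FK228. All mutant and FK228 libraries lay below their own controls without overlap. The change was -1.20 ± 0.26 with mutant Hdac1 and -0.98 ± 0.26 with mutant Hdac2 (limma adjusted p = 0.00118 and 0.00522), and -0.22 ± 0.26 with FK228, which did not pass (0.496). The Hdac2 call was lost, at 0.101 without Hdac2 mutant replicate 1. The Hdac1 mutant effect minus the FK228 effect was -0.98 ± 0.37, which did not pass (limma adjusted p = 0.122). Of its subfamily, Fgf5, the epiblast marker, went from 0 and 0.19 to 0.73 and 1.16 FPKM with mutant Hdac1, from 0.0677 and 0.197 to 1.03 and 1.29 with mutant Hdac2 and from 0.195 and 0 to 1.16 and 0.825 with FK228, and Fgf6 was at most 0.305 FPKM in any library.

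Fgf4 lies on mouse chromosome 7 between Fgf3, a ligand of inner ear development, and Fgf15, the gut hormone that restrains bile acid synthesis, with no protein-coding gene between the 3 in the GENCODE annotation of GRCm38. All 3 are on the plus strand, at 144838083 to 144844436 for Fgf3, 144847367 to 144865243 for Fgf4 and 144896531 to 144900953 for Fgf15. Both neighbours rose. Fgf3 went from 0.225 and 1.03 to 6.52 and 6.16 FPKM with mutant Hdac1, from 3.4 and 2.74 to 8.67 and 12.7 with mutant Hdac2 and from 0.689 and 0.519 to 6.88 and 4.6 with FK228, without overlap, with differences of 2.22 ± 0.27, 1.51 ± 0.27 and 2.05 ± 0.27 (limma adjusted p = 5.59e-06, 0.000213 and 9.03e-06). The filter favoured a higher call for Fgf15. It was listed at 0 in both Hdac1 WT libraries and stood at 5.06 and 7.81 FPKM in the Hdac1 mutant (limma adjusted p = 9.73e-08). It went from 0.163 and 0.121 to 6.42 and 9.22 FPKM with mutant Hdac2 and from 0 and 0.04 to 8.04 and 8.62 with FK228, and its mutant and FK228 libraries lay far above all controls. Of the exonic bases of Fgf15, 24.9% also lie in exons of the antisense gene Gm26793, which was at most 1.36 FPKM in these libraries, and reads of the pair cannot be told apart without strand. Just beyond, the gene listed as LTO1 stood at 22.5 to 46.6 FPKM in the controls and at 7.39 to 11.1 FPKM in the mutant and FK228 libraries, given here as levels.

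The promoters of Fgf3 and Fgf4 (RefSeq, GRCm38.p6, plus strand, CG in capitals) are shown because these neighbours, whose RefSeq starts lie 22.8 kb apart, moved in opposite directions. They span chr7:144838362-144838661 with 14 CG and chr7:144861136-144861435 with 28 CG, both on chromosome 7.
Fgf3: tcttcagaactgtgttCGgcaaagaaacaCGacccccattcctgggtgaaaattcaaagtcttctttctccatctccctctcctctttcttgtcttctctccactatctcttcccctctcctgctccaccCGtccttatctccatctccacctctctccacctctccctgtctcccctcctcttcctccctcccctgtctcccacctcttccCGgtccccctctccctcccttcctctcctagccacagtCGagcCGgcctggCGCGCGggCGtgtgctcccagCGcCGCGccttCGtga
Fgf4: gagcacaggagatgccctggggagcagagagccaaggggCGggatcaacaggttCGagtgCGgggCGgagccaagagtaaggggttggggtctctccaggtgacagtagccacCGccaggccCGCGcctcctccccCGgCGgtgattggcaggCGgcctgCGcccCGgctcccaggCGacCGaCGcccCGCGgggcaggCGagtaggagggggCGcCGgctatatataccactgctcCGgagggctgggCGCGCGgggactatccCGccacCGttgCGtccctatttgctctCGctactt
Fgf4, which was called lower with either mutant and not with FK228, holds the more CG of the 2. A link between CG content and direction was not tested. Each window lies inside the GENCODE span of its gene, which starts at 144838083 for Fgf3 and 144847367 for Fgf4. In all, 13 of the 41 members lie in 7 pairs of neighbours within 100 kb of each other. Wnt9b and Wnt3 on chromosome 11, and Wnt10b and Wnt1 on chromosome 15, rose together in all 3 comparisons, and Fgf4 with Fgf3 and Fgf15 were the pairs called in opposite directions, with mutant Hdac1 and with mutant Hdac2. Exons of other annotated genes also cover 8.8% of the exonic bases of Wnt11 (Gm8398), 6.6% of Wnt7b (AU022754), 4.6% of Wnt5a (Gm2670) and 12% of Fgf20 (Micu3), and reads there cannot be assigned to 1 gene without strand.

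**Figure D3:**
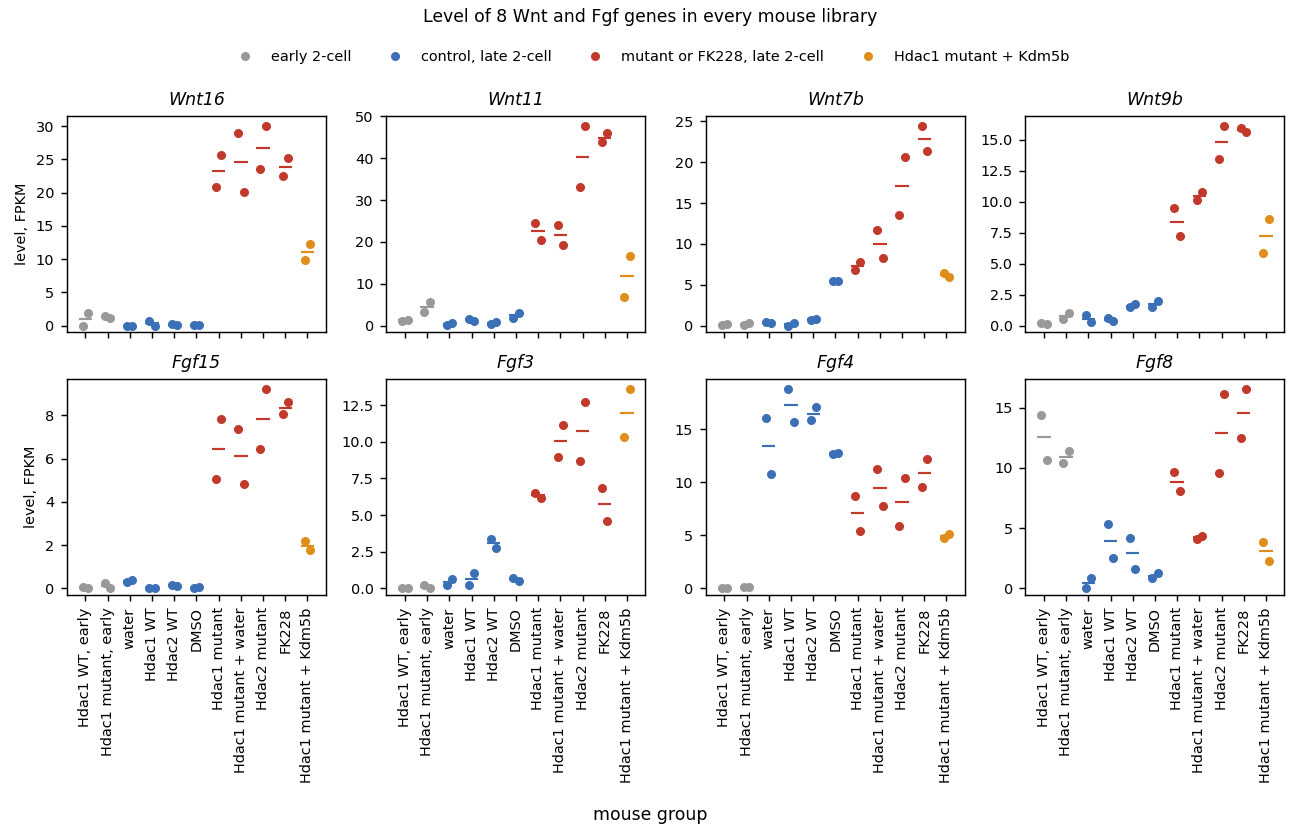
Level in FPKM of 8 members in each of the 22 mouse libraries (points, 2 per group) with the group mean as a bar, grey for early groups, blue for late controls, red for late mutant and FK228 groups and orange for the Hdac1 mutant with Kdm5b. Red points stand above all blue ones in 6 of the 8 panels, most red Fgf4 points lie below the blue ones, and Fgf8 is high again in the grey early groups.

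In the Fgf7 subfamily, ligands that pass from mesenchyme to epithelium, 1 further call was made beside those of Fgf3. Fgf7 went from 4.49 and 3.45 to 1.81 and 2.55 FPKM with mutant Hdac1, from 4.4 and 3.01 to 2.77 and 1.48 with mutant Hdac2 and from 1.81 and 3.86 to 3.34 and 3.75 with FK228, so that both mutant groups stood below their controls without overlap and FK228 overlapped with DMSO, and it was not called (limma adjusted p = 0.117, 0.142 and 0.474). Fgf10, the lung and limb ligand, went from 0 and 0.112 to 0.621 and 0.358 FPKM with mutant Hdac1, from 0.118 and 0.0494 to 0.573 and 0.209 with mutant Hdac2 and from 0.114 and 0.178 to 0.259 and 0.51 with FK228. Its call with mutant Hdac1, 0.49 ± 0.18 (limma adjusted p = 0.0355), concerned levels below 1 FPKM and was lost, at 0.185 without Hdac1 mutant replicate 1, 0.158 without Hdac1 WT replicate 1 and 0.0562 without Hdac1 WT replicate 2. Fgf22 was called in none of the 3 and lay between 0 and 1.95 FPKM in the late control, mutant and FK228 libraries.

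In the Fgf8 subfamily, ligands of gastrulation and brain organisers, Fgf8 went from 5.38 and 2.53 to 9.62 and 8.06 FPKM with mutant Hdac1, from 4.19 and 1.63 to 9.55 and 16.2 with mutant Hdac2 and from 0.829 and 1.24 to 12.5 and 16.6 with FK228. The groups did not overlap, and the spread between control replicates was wide. The differences were 1.05 ± 0.38 with mutant Hdac1, 1.86 ± 0.38 with mutant Hdac2 and 2.93 ± 0.38 with FK228 (limma adjusted p = 0.0297, 0.000628 and 7.38e-06). The first of these was lost, at 0.125 without Hdac1 mutant replicate 1, 0.0574 without Hdac1 mutant replicate 2 and 0.261 without Hdac1 WT replicate 2. Fgf18 went from 2.84 and 6.21 to 4.78 and 11 FPKM with mutant Hdac1, from 10.6 and 9.23 to 17.8 and 26.7 with mutant Hdac2 and from 18 and 15.6 to 18.9 and 17.3 with FK228. It was called with mutant Hdac2 at 1.07 ± 0.35 (limma adjusted p = 0.0187), which was lost, at 0.164 without Hdac2 mutant replicate 2 and 0.0922 without Hdac2 WT replicate 2, and the libraries overlapped in the other 2 comparisons. Fgf17 went from 0.584 and 0.293 to 0.816 and 1.31 FPKM with mutant Hdac1, from 0.531 and 1.23 to 1.91 and 1.84 with mutant Hdac2 and from 0.61 and 1.17 to 0.907 and 0.334 with FK228, and none of these 3 comparisons passed for it.

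Of the Fgf9 subfamily, Fgf9, a ligand of gonad and lung mesenchyme, was already present in controls. It went from 4.83 and 13.6 to 15.6 and 18.5 FPKM with mutant Hdac1, from 7.55 and 5.02 to 16.8 and 25.8 with mutant Hdac2 and from 8.14 and 8.87 to 15.3 and 18.6 with FK228, and Hdac1 WT replicate 2 came close to the Hdac1 mutant libraries. Its differences were 0.96 ± 0.36, 1.61 ± 0.36 and 0.91 ± 0.36 (limma adjusted p = 0.0339, 0.00127 and 0.0394). The calls depended on single libraries, with 0.0622 without Hdac1 mutant replicate 1, 0.14 without Hdac1 mutant replicate 2 and 0.498 without Hdac1 WT replicate 1 for the Hdac1 mutant and 0.135 without DMSO replicate 1, 0.0912 without DMSO replicate 2, 0.0666 without FK228 replicate 1 and 0.169 without FK228 replicate 2 for FK228. Fgf20 was listed at 0 in both Hdac1 WT libraries and stood at 1.76 and 3.82 FPKM in the Hdac1 mutant, while it went from 0.187 and 0.174 to 0.906 and 1.49 with mutant Hdac2 and from 0 and 0.102 to 1.25 and 0.853 with FK228. Its Hdac2 call was lost, at 0.0985 without Hdac2 mutant replicate 2. Fgf16, the cardiac member, was not called in any of the 3, with library values from 0 to 1.78 FPKM in these groups.

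Fgf1, which binds every Fgf receptor and lacks a signal peptide, was the highest Fgf in mutant and FK228 embryos. It went from 16.6 and 9.66 to 22.8 and 23.4 FPKM with mutant Hdac1, from 18.4 and 17.2 to 35.4 and 41 with mutant Hdac2 and from 11 and 13.2 to 41.8 and 45.5 with FK228, without overlap. The differences were 0.81 ± 0.21, 1.06 ± 0.21 and 1.78 ± 0.21 (limma adjusted p = 0.00457, 0.000598 and 3.41e-06), the largest under FK228, and the Hdac1 call was lost, at 0.0919 without Hdac1 WT replicate 2. The Hdac1 mutant effect minus the FK228 effect was -0.96 ± 0.30, which did not pass (limma adjusted p = 0.0678). Fgf2 exceeded 1 FPKM in 1 library only, FK228 replicate 1, at 1.86 FPKM. Fgf21, the fasting hormone of liver, was listed at 0 in both Hdac1 WT libraries and stood at 0.594 and 0.378 FPKM in the Hdac1 mutant. It went from 0.113 and 0 to 1.12 and 2.2 FPKM with mutant Hdac2 and from 0.182 and 0 to 2.36 and 2.16 with FK228, and its Hdac1 call was lost, at 0.133 without Hdac1 mutant replicate 1, 0.0829 without Hdac1 WT replicate 1 and 0.082 without Hdac1 WT replicate 2. Fgf23, the phosphate hormone, was at most 0.594 FPKM.

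Among the intracellular homologous factors, which regulate voltage-gated sodium channels in neurons, Fgf11 went from 0.162 and 0 to 2.87 and 6 FPKM with mutant Hdac1, from 0.0334 and 0.0227 to 4.87 and 7.77 with mutant Hdac2 and from 0.275 and 0.246 to 8.92 and 12.1 with FK228. All groups were separate, and the differences were 2.27 ± 0.31, 2.80 ± 0.31 and 3.18 ± 0.31 (limma adjusted p = 1.76e-05, 1.91e-06 and 3.93e-07). The filter favoured such calls for Fgf11 and Fgf13. Fgf13 went from 0 and 0.19 to 1.63 and 0.517 FPKM with mutant Hdac1, from 0.271 and 0.169 to 1.26 and 1.15 with mutant Hdac2 and from 0.594 and 0.25 to 1.59 and 1.18 with FK228, without overlap, and replicate 2 of the Hdac1 mutant was the lowest of the mutant and FK228 libraries. Its calls were lost with 0.112 without Hdac1 mutant replicate 1 and 0.0529 without Hdac1 WT replicate 1 for the Hdac1 mutant and with 0.122 without DMSO replicate 2 and 0.0945 without FK228 replicate 1 for FK228. Fgf12 and Fgf14 were at most 0.0546 and 0.0375 FPKM.

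A separate set of 4 libraries compared Hdac1 mutant embryos, given water as a second injection, with embryos injected with water alone. These controls received no Hdac1 mRNA, and a second injection is described for the mutant group only. The mutation, the added Hdac1 mRNA and the second injection cannot be told apart here. Both libraries of the former were above both of the latter for 31 of 41 members and below for 0, beside 37.5% and 17.7% of all genes. By limma, 26 of the 33 tested members were called higher and 0 lower, with 26 at an unadjusted p under 0.05, beside 34.5% and 18.1% of all genes called and 57.2% at such a p. The 24 members called higher in the 3 comparisons above were all among them, and 19.9% of all tested genes were called higher in all 4. The filter favours higher calls here too, since 17 of the 33 passed it only through late mutant or FK228 libraries, including the mutant with water. Of those 17, all but Fgf22, Wnt6 and Wnt10a were among the 24. Wnt16 was listed at 0 in both water libraries and stood at 29 and 20.2 FPKM in the mutant with water (limma adjusted p = 7.99e-08). Wnt11 went from 0.0628 and 0.574 to 23.9 and 19.3 FPKM, Fgf3 from 0.243 and 0.668 to 8.97 and 11.2 and Fgf15 from 0.275 and 0.385 to 7.37 and 4.83. None of these 4 genes overlapped, and the differences were 4.12 ± 0.34 for Wnt11, 2.94 ± 0.27 for Fgf3 and 2.39 ± 0.23 for Fgf15. Fgf4 went from 16 and 10.8 to 11.2 and 7.77 FPKM, with overlap, and was not called (-0.45 ± 0.26, limma adjusted p = 0.166). Fgf17, from 0.398 and 0.185 to 2.03 and 1.1 FPKM, and Wnt6, listed at 0 in both water libraries and at 1.39 and 0.226 in the mutant with water, were called here, and both calls were lost without single libraries, at 0.0783 without Hdac1 mutant plus water replicate 1 for Fgf17 and 0.13 without water replicate 1, 0.123 without water replicate 2 and 0.51 without Hdac1 mutant plus water replicate 1 for Wnt6. Further calls were lost for Fgf9 at 0.213 without water replicate 1, 0.0619 without Hdac1 mutant plus water replicate 1 and 0.0605 without Hdac1 mutant plus water replicate 2, for Fgf5 at 0.0838 without Hdac1 mutant plus water replicate 1, for Wnt2b at 0.216 without Hdac1 mutant plus water replicate 1 and for Wnt7a at 0.103 without Hdac1 mutant plus water replicate 1.

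Kdm5b mRNA in Hdac1 mutant embryos was compared with water in Hdac1 mutant embryos, whose libraries also serve in the comparison with water alone. Both Kdm5b libraries stood below both water libraries for 20 of 41 members, 10 Wnt and 10 Fgf genes, and above them for 1, Fgf13, beside 21.1% and 16.4% of all genes. The median difference over the 41 members was -0.38, and 0 over all genes. The blood markers summed to 132 and 144 FPKM with water and 98 and 89.3 with Kdm5b, and the cumulus and granulosa markers to 13.7 and 10.5 with water and 8.88 and 7.94 with Kdm5b, and their part was not tested. Wnt16 was at 29 and 20.2 FPKM with water and 9.88 and 12.2 with Kdm5b, a difference of -1.07 ± 0.37 that did not pass (limma adjusted p = 0.169). Wnt11 was at 23.9 and 19.3 FPKM with water and 6.93 and 16.7 with Kdm5b (-0.92 ± 0.34, limma adjusted p = 0.203). For both genes the Kdm5b libraries lay between the mutant and the water-only libraries. By limma, Fgf15 alone was called lower, from 7.37 and 4.83 to 2.18 and 1.76 FPKM (-1.24 ± 0.23, adjusted p = 0.0297), and 0 members were called higher, with 15 of 33 at an unadjusted p under 0.05, beside 0.629% and 0.415% of all genes called and 14.9% at such a p. The count of 15 became 3 without Hdac1 mutant plus water replicate 1. That call was lost, at 0.275 without Hdac1 mutant plus water replicate 1, 0.109 without Hdac1 mutant plus Kdm5b replicate 1 and 0.191 without Hdac1 mutant plus Kdm5b replicate 2. Fgf3, at 8.97 and 11.2 FPKM with water and 10.3 and 13.6 with Kdm5b, and Fgf1, at 32.6 and 34.3 with water and 40.5 and 29.7 with Kdm5b, overlapped.

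Early and late stages were compared in embryos with Hdac1 WT mRNA, whose late libraries are those of the Hdac1 comparison. Late libraries stood above early ones without overlap for 9 of 41 members and below for 6, beside 24.1% and 29.4% of all genes. By limma, 4 members were higher and 4 lower at the late stage, beside 28.8% and 28.1% of all genes. Fgf4 was at 0.0704 and 0.0227 FPKM early and 18.8 and 15.7 late (4.12 ± 0.26, limma adjusted p = 2.24e-09). Fgf18 went from 0.937 and 0.163 to 2.84 and 6.21 FPKM, Fgf1 from 6.39 and 8.3 to 16.6 and 9.66 and Fgf7 from 1.6 and 1.75 to 4.49 and 3.45. The 4 members that fell were Fgf8, from 14.4 and 10.7 to 5.38 and 2.53 FPKM, Fgf10, from 1.27 and 1.04 to 0 and 0.112, Wnt4, from 1.53 and 3.17 to 0 and 0.183, and Wnt7a, from 1.81 and 1.02 to 0.566 and 0.123. Early and late libraries did not overlap for any of the 8. The cumulus and granulosa markers summed to 14.6 and 19 FPKM in the early and 1.98 and 2.22 in the late libraries, and their part was not tested. Calls were lost for Fgf1 at 0.0919 without early Hdac1 WT replicate 1 and 0.169 without Hdac1 WT replicate 1, for Fgf7 at 0.114 without early Hdac1 WT replicate 1, 0.085 without early Hdac1 WT replicate 2 and 0.153 without Hdac1 WT replicate 1, for Wnt7a at 0.109 without early Hdac1 WT replicate 1 and 0.0975 without Hdac1 WT replicate 2 and for Fgf8 at 0.0509 without Hdac1 WT replicate 2.

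At the early stage itself, limma called 0 members in either direction between the Hdac1 mutant and Hdac1 WT, with 4 of 33 at an unadjusted p under 0.05, beside 0.231% and 0.329% of all genes called and 6.1% at such a p. Both mutant libraries stood above both WT libraries for 12 of 41 members, 8 of them Wnt genes, and below for 4, beside 14.8% and 12.7% of all genes. Wnt11 was at 1.18 and 1.28 FPKM with WT and 3.18 and 5.57 with the mutant (1.23 ± 0.34, limma adjusted p = 0.176), and Wnt5a at 0.0385 and 0.264 with WT and 0.708 and 1.67 with the mutant (0.90 ± 0.39, 0.727). The groups of neither gene overlapped. Those of Wnt16, at 0 and 1.84 FPKM with WT and 1.45 and 1.07 with the mutant, and Fgf8, at 14.4 and 10.7 with WT and 10.4 and 11.4 with the mutant, did. The cumulus and granulosa markers summed to 5.41 and 8.01 FPKM in the early mutant, and their part was not tested. Tested as an interaction, the Hdac1 mutant effect was larger at the late than at the early stage for 17 members and lower for 1, Fgf4, beside 21.2% and 15.2% of all genes. Of the former, Fgf5, Fgf11, Fgf13, Fgf15, Fgf20, Wnt2b, Wnt3, Wnt8b and Wnt10b passed the filter only through late mutant or FK228 libraries. The filter thus favoured a larger late effect for them. Over all 41 members, without a filter, the median change was 0.85, beside 0.04 over all genes. The change was 3.78 ± 0.52 for Wnt16 and 2.78 ± 0.31 for Wnt7b (limma adjusted p = 5.44e-05 and 9.41e-06), while Fgf4, at most 0.135 FPKM in the early groups, changed by -1.29 ± 0.37 (0.0129). Fgf4 lost that call, at 0.0611 without Hdac1 mutant replicate 2.

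With wild-type Hdac1 mRNA, 1 member changed. Both Hdac1 WT libraries stood above both water libraries for 5 of 41 members and below for 3, beside 8.81% and 15.6% of all genes. Against water, Hdac1 WT embryos at the late stage had 1 member called higher by limma, Fgf8, and 0 lower, with 2 of 33 at an unadjusted p under 0.05, beside 0.352% and 1.83% of all genes called and 15.8% at such a p. Fgf8 was at 0 and 0.89 FPKM with water and 5.38 and 2.53 with Hdac1 WT (1.79 ± 0.38, adjusted p = 0.025), and the call was lost, at 0.161 without water replicate 1 and 0.159 without Hdac1 WT replicate 1. Fgf4 was at 16 and 10.8 FPKM with water and 18.8 and 15.7 with Hdac1 WT, and Wnt11 at 0.0628 and 0.574 with water and 1.58 and 1.1 with Hdac1 WT. The Fgf4 groups overlapped and the Wnt11 groups did not. When the Hdac1 mutant effect was tested against the FK228 effect, 4 members had the lower value, Fgf8, Fgf21, Wnt1 and Wnt2b, and 0 the higher, with 10 of 33 at an unadjusted p under 0.05, beside 2.2% and 4.76% of all genes called and 24% at such a p. The Hdac1 mutant effect minus the FK228 effect was -1.88 ± 0.54 for Fgf8, -1.61 ± 0.38 for Wnt1 and -1.30 ± 0.36 for Wnt2b (limma adjusted p = 0.047, 0.022 and 0.0441), and for Fgf21 the adjusted p was 0.0442. These calls rest on single libraries. That of Wnt2b was lost without any 1 of the 8 libraries, that of Fgf8 without any but Hdac1 WT replicate 2, that of Fgf21 without any but Hdac1 mutant replicate 1, and that of Wnt1 without any but replicate 2 of Hdac1 WT or of the Hdac1 mutant. Adjusted p among the lost calls ran from 0.0571 for Wnt1, without FK228 replicate 1, to 0.147 for Fgf8, without FK228 replicate 2.

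The receptors and other parts of both pathways were read from fixed lists, beside the same shares of all genes given above. Of the 6 tested Fgf receptors and co-receptors (of 7 listed), limma called 3 higher and 1 lower with mutant Hdac1, 3 higher and 0 lower with mutant Hdac2 and 3 higher and 0 lower with FK228. Fgfr3 went from 1.57 and 0.669 to 35.6 and 27.6 FPKM with mutant Hdac1 (3.96 ± 0.32), Fgfr2 from 2.73 and 4.41 to 17.1 and 19 FPKM (2.08 ± 0.26) and Fgfr4 from 1.19 and 1.53 to 5.76 and 2.67 FPKM (1.08 ± 0.26). These 3 receptors rose in all 3 comparisons. The Fgfr4 call was lost with mutant Hdac1, at a limma adjusted p of 0.0576 without Hdac1 mutant replicate 1, and with FK228, at 0.114 without DMSO replicate 2, 0.0625 without FK228 replicate 1 and 0.0619 without FK228 replicate 2. Of 17 genes of Fgf signal transduction, limma called 4 higher and 4 lower with mutant Hdac1, 2 higher and 7 lower with mutant Hdac2 and 5 higher and 5 lower with FK228. The adaptor Grb2 went from 55.9 and 49.8 to 16 and 20.5 FPKM and the exchange factor Sos1 from 17 and 12.7 to 4.18 and 3.17 FPKM with mutant Hdac1, and both fell in all 3 comparisons. The phospholipase Plcg1 went from 1.49 and 1.32 to 3.15 and 4.81 FPKM and rose in all 3. Of 12 Fgf feedback inhibitors and targets, it called 8 higher and 0 lower with mutant Hdac1, 5 higher and 0 lower with mutant Hdac2 and 7 higher and 2 lower with FK228. The MAP kinase phosphatase Dusp4 went from 0.999 and 1.09 to 42.5 and 42.3 FPKM with mutant Hdac1 (4.41 ± 0.19) and the transcription factor Etv4 from 0 and 0.102 to 2.62 and 8.4 FPKM (2.47 ± 0.37), while Fos was listed at 0 in both Hdac1 WT libraries and stood at 11.2 and 4.49 FPKM in the mutant.

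On the Wnt side, among 17 tested receptors and co-receptors of 18, limma called 9 higher and 1 lower with mutant Hdac1, 11 higher and 2 lower with mutant Hdac2 and 7 higher and 3 lower with FK228. The Frizzled receptor Fzd5 went from 9.45 and 7.42 to 89.6 and 74.5 FPKM with mutant Hdac1 (3.14 ± 0.23), Fzd4 from 7.29 and 8.74 to 42.5 and 39.1 FPKM (2.22 ± 0.19) and Fzd8 from 0.593 and 0.162 to 6.9 and 6.26 FPKM (2.48 ± 0.19). Fzd5 had the highest level per length of these 3 in the mutant. Among the 4 tested secretion factors and R-spondins of 6, it called 3 higher and 0 lower with mutant Hdac1, 2 higher and 0 lower with mutant Hdac2 and 2 higher and 0 lower with FK228. Porcn, the acyltransferase of Wnt proteins, went from 0.876 and 0.71 to 3.95 and 2.46 FPKM and the R-spondin Rspo1 from 0 and 0.281 to 1.35 and 1.32 FPKM. The carrier Wls went from 0.511 and 0.118 to 0.882 and 0.88 FPKM, and its call was lost, at a limma adjusted p of 0.114 without Hdac1 mutant replicate 1, 0.112 without Hdac1 mutant replicate 2 and 0.324 without Hdac1 WT replicate 2. Of 13 tested Wnt inhibitors of 18, it called 7 higher and 0 lower with mutant Hdac1, 7 higher and 0 lower with mutant Hdac2 and 6 higher and 1 lower with FK228, led by Apcdd1, from 0.397 and 0.56 to 25.5 and 19.6 FPKM (3.98 ± 0.21), Dkk3, from 0.236 and 0.324 to 7.91 and 6.19 FPKM (2.65 ± 0.23), and Sfrp1, from 2.18 and 1.3 to 15.8 and 13.7 FPKM (2.54 ± 0.20). All 3 antagonists rose in all 3 comparisons. Of 18 intracellular transducers, it called 9 higher and 4 lower with mutant Hdac1, 6 higher and 5 lower with mutant Hdac2 and 6 higher and 5 lower with FK228. The β-catenin partners Bcl9l and Bcl9 went from 0.108 and 0.157 to 3.65 and 8.46 FPKM and from 7.88 and 7.42 to 23.9 and 25.2 FPKM, and the transcription factor Tcf7l1 from 0.296 and 0.205 to 4.64 and 4.56 FPKM, and these 3 rose in all 3 comparisons. Chosen after the values were seen, Ctnnb1 (β-catenin itself), Gsk3b, Csnk1a1 and Btrc were the 4 of this list that fell in all 3. Of 7 tested Wnt targets of 8, it called 5 higher and 0 lower with mutant Hdac1, 5 higher and 0 lower with mutant Hdac2 and 4 higher and 1 lower with FK228, with Sp5 from 2.35 and 1.46 to 59.6 and 49 FPKM (4.26 ± 0.30), Nkd1 from 5.4 and 4.22 to 19.8 and 17.1 FPKM (1.75 ± 0.14) and Nkd2 from 0.233 and 0 to 2.55 and 4.88 FPKM (2.04 ± 0.32). These 3 targets rose in all 3 comparisons. With Kdm5b, Kremen2, from the inhibitor list, was the gene of these 8 lists that limma called, and it was lower.

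In bovine embryos at the 8/16-cell stage, both FK228 libraries stood above both DMSO libraries for 21 of 39 members and below for 2, beside 34.3% and 28.2% of all genes. Limma called 6 members higher and 2 lower of the 15 that passed the filter, beside 22.2% and 27.4% of all genes. The filter set the direction for some of these. WNT16, FGF9 and WNT3A reached 1 FPKM only with FK228, and WNT5A and WNT11 only with DMSO. WNT16 was at 0.285 and 0.536 FPKM with DMSO and 12.3 and 9.01 with FK228 (3.04 ± 0.24, limma adjusted p = 5.7e-05). FGF9 went from 0.501 and 0.826 to 15.6 and 21.9 FPKM (3.56 ± 0.24, 3.94e-05). FGF19, the bovine counterpart of mouse Fgf15, went from 14.3 and 11.5 to 29.5 and 45.2 (1.44 ± 0.23, 0.00139). WNT3 went from 0.931 and 1.02 to 5.01 and 3.67 FPKM, WNT3A from 0.0364 and 0.0686 to 1.28 and 1.26 and WNT7A from 5.5 and 6.63 to 9.53 and 11.8. These 6 genes rose without overlap. The 2 that fell were WNT5A, from 3.07 and 5.46 to 0.537 and 0.807 FPKM (-1.62 ± 0.27, 0.00146), and WNT11, from 1.17 and 2.18 to 0.225 and 0.653 (-0.88 ± 0.26, 0.0213). The call of WNT11 was lost at 0.109 without DMSO replicate 2 and 0.112 without FK228 replicate 1, and that of WNT7A at 0.119 without DMSO replicate 1 and 0.145 without FK228 replicate 2. The 11 listed cumulus and granulosa markers summed to 39.9 and 66.4 FPKM with DMSO and 25.2 and 33.5 with FK228, with none at 0 in both libraries of a group, led by TIMP1. The 6 listed sperm markers summed to 0.239 and 1.14 FPKM with DMSO and 8.06 and 4.43 with FK228, with SMCP at 0 in both DMSO libraries and called higher. The part of either list was not tested.

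FGF16, FGF18, FGF22 and WNT2B also had a group mean of at least 5 FPKM in cattle and were not called. FGF16 was at 4.74 and 12.4 FPKM with DMSO and 12.5 and 15.1 with FK228, FGF22 at 4.59 and 7.18 with DMSO and 7.96 and 14.9 with FK228, and FGF18 at 6.14 and 12 with DMSO and 9.41 and 12.1 with FK228. WNT2B was at 4.65 and 3.57 FPKM with DMSO and 5.3 and 5.69 with FK228. The FGF18 libraries overlapped and the others did not. FGF2, FGF12 and FGF14 passed the filter as well and were not called, and the other 24 members did not pass it. FGF4 and FGF13 were not analysed here in cattle. Of the bovine pathway genes tested, again beside 22.2% and 27.4% of all genes, limma called 7 higher and 1 lower of 13 Wnt receptors and co-receptors, 3 higher and 1 lower of 4 Fgf receptors and co-receptors, and 6 higher and 1 lower of 12 Fgf feedback inhibitors and targets. It called 4 higher and 2 lower of 17 genes of Fgf signal transduction, 1 higher and 1 lower of 6 Wnt secretion factors and R-spondins, 3 higher and 2 lower of 11 Wnt inhibitors, 4 higher and 2 lower of 18 intracellular transducers and 2 higher and 1 lower of 6 Wnt targets.

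Between the species, 38 members had a value under the same symbol in both tables. In 19 of them the FK228 and DMSO libraries were separate in mouse and in cattle. Of these, 17 stood higher with FK228 in both species and 2, Wnt5a and Wnt11, higher in mouse and lower in cattle. Among the 17, Fgf9, Wnt16, Wnt3 and Wnt7a were called higher in both species. The mouse call of Fgf9 was lost without any single FK228 or DMSO library. The bovine call of WNT7A was lost without DMSO replicate 1 or FK228 replicate 2. The filter favoured higher calls for mouse Wnt3 and for bovine FGF9 and WNT16. Fgf11, Fgf21, Wnt3a, Wnt4, Wnt7b, Wnt8b, Wnt9a, Wnt9b, Wnt10a and Wnt10b did not pass the filter in mouse, in cattle or in both. Bovine WNT4, for example, was at 0 in both DMSO libraries and at 0.032 and 0.0333 FPKM with FK228. The share of the 38 that stood higher in both species was 44.7%, beside 21.4% of the 14745 symbols in both tables. The share higher in mouse and lower in cattle was 5.3%, beside 10.2% of those symbols. Wnt16 and Fgf9 rose in both, by 4.50 ± 0.37 and 0.91 ± 0.36 in mouse and by 3.04 ± 0.24 and 3.56 ± 0.24 in cattle. The stages, media and depths differ between the species, and the difference itself was not tested.

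**Figure D4:**
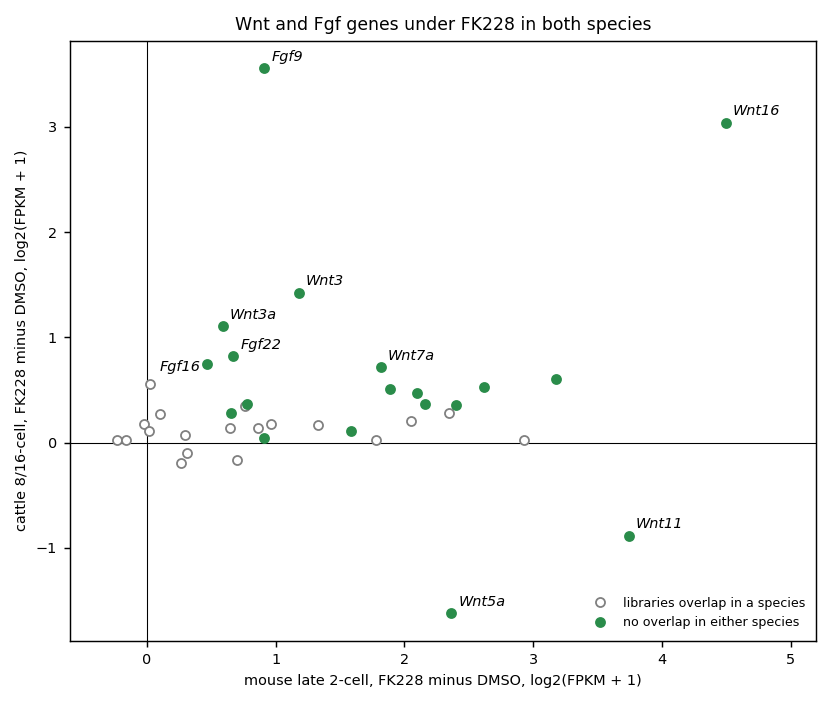
FK228 minus DMSO in the mouse late 2-cell embryo (horizontal) and the bovine 8/16-cell embryo (vertical), on the log2(FPKM + 1) scale, for the 38 members in both tables; filled points have no overlap between FK228 and DMSO libraries in either species. Wnt16 stands high on both axes, Fgf9 mainly on the bovine one, and Wnt5a and Wnt11 lie below 0 in cattle alone.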

How the data were processed

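RNA of mouse 2-cell and bovine 8/16-cell embryos was isolated with the Picopure kit, selected with oligo(dT) beads and made into libraries with an NEB kit, per the labels' protocols, which describe no strand marking. The submitters' processing notes name Trimmomatic, HISAT2, featureCounts, Cufflinks and DESeq2, without versions, and the builds GRCm38 and ARS-UCD1.2. The authors deposited FPKM values per gene, 1 table per species. Whole reads could not be recovered from the FPKM values, and relative depth was estimated from the commonest ratio of low values between libraries. An exact 0 can be a failed estimate and is given as listed at 0.

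Members were matched by symbol, 41 in mouse and 39 in cattle. The members, the pathway lists and the tests were chosen with earlier results of these data known. Groups follow the labels, with 2 libraries each. Genes with at least 1 FPKM in 2 libraries (17336 in mouse, 12590 in cattle) were fitted on log2(FPKM + 1) with limma 3.58.1 (R 4.3.3, trended empirical Bayes), over all 22 mouse or all 4 bovine libraries, so the groups of a species share 1 estimate of the spread. Tests were two-sided, with Benjamini-Hochberg adjustment over all genes tested and calls at an adjusted p under 0.05. The script was tested on simulated data. Named with values in each library were members with a group mean of at least 5 FPKM or a call in the Hdac1 mutant, Hdac2 mutant or FK228 comparisons, and up to 3 called genes of each pathway list by size of change with mutant Hdac1. Counts of separate libraries use every gene without a filter. Tables were read with pandas 2.3.3. Coordinates are from the GENCODE M21 annotation of GRCm38, in which 41 of 41 mouse members were found, and promoter windows are from RefSeq on GRCm38.p6. Alternatives were another pseudocount, no filter or a stricter one, other scalings, a replicate block, fits on the compared groups alone, and each library left out in turn.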

Additional observations from a re-analysis of the deposited data

Results flagged for a closer look

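The effect of the Hdac1 mutant differed between the early and the late 2-cell stage, in a test of the interaction by limma with an adjusted p under 0.05, for 18 members. The filter favoured a larger late effect for Fgf5, Fgf11, Fgf13, Fgf15, Fgf20, Wnt2b, Wnt3, Wnt8b and Wnt10b. These passed it only through late mutant or FK228 libraries. On the log2(FPKM + 1) scale the Wnt genes changed by 3.78 for Wnt16, 2.78 for Wnt7b, 2.13 for Wnt9b, 2.1 for Wnt11, 1.96 for Wnt10b, 1.83 for Wnt4, 1.69 for Wnt3, 1.38 for Wnt8b, 1.08 for Wnt2b and 1.02 for Wnt7a. Fgf15, Fgf11, Fgf3 and Fgf20 changed by 2.74, 2.28, 2.11 and 1.41, and Fgf1, Fgf13 and Fgf5 by 1.25, 0.96 and 0.85. Fgf4 stood at 0.0704 and 0.0227 FPKM in early Hdac1 WT libraries, too low for a fall to be seen there. Its change was -1.29, the one case of a lower mutant effect at the late stage. Of these calls, that of Wnt2b was lost with an adjusted p of up to 0.0849 (without late Hdac1 WT replicate 1), that of Wnt7a with up to 0.144 (without early Hdac1 WT replicate 1), that of Fgf13 with up to 0.169 (without late Hdac1 mutant replicate 1), that of Fgf5 with up to 0.114 (without early Hdac1 mutant replicate 1) and that of Fgf4 with 0.0611 (without late Hdac1 mutant replicate 2).

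Under FK228, Wnt11 was higher in every mouse library (3.74) and WNT11 lower in every bovine library (-0.88). Wnt5a was higher in mouse (2.36) and WNT5A lower in cattle (-1.62). The filter favoured the rise of mouse Wnt5a, and the fall of bovine WNT11 and WNT5A, which reached 1 FPKM only with DMSO. The WNT11 call was lost when DMSO replicate 2 or FK228 replicate 1 was left out. Wnt11 and Wnt5a are 5.3% of the 38 members in both tables, beside 10.2% of all shared symbols that stood higher in mouse and lower in cattle. The difference between the species was not tested.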

How the results depend on the processing

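With 2 libraries per group, an unpassed test says little, and low members rest on few reads. No member called in any comparison changed its sign in the alternatives run. Quantile normalization moved the median difference of all tested genes from 0.169 to -0.0006 with mutant Hdac1, and median-ratio scaling to 0.304. Under a minimum of 5 FPKM, which tests fewer genes, the members called higher numbered 13 with mutant Hdac1, 14 with mutant Hdac2, 13 with FK228, 13 with the Hdac1 mutant plus water and 10 for the change between stages, while 1 fell from early to late, 0 fell in cattle and 1 was lower with mutant Hdac1 than with FK228. Under quantile normalization 16 were called higher with mutant Hdac1, and those called lower were 2 with mutant Hdac1, 2 with mutant Hdac2, 1 with FK228, 1 with the Hdac1 mutant plus water and 0 with Kdm5b.

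With only the compared groups in the fit, 0 were called lower with mutant Hdac1, with mutant Hdac2, with Kdm5b and for mutant Hdac1 against FK228, 2 fell from early to late, and 0 were higher with Hdac1 WT than with water. With a pseudocount of 0.1, Kdm5b lowered 0, Hdac1 WT against water lowered 1, and mutant Hdac1 against FK228 gave 1 higher and 0 lower. Without a filter, 0 were higher with Hdac1 WT than with water, 1 was lower in cattle and 2 were lower with mutant Hdac1 than with FK228. The cause of these changes was not tested.

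Leaving out 1 library gave 0 to 1 lower with mutant Hdac2, 0 to 1 with Kdm5b, 0 to 1 for the change between stages, 1 to 2 in cattle and 0 to 3 for mutant Hdac1 against FK228. It gave 2 to 4 higher from early to late, 0 to 1 for Hdac1 WT against water and 0 to 1 for mutant Hdac1 against FK228.

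Replicates share only a number across groups. Replicate deviations correlated across genes at -0.0893 to 0.175 between mouse groups and 0.233 in cattle. A replicate block left 1 member lower with mutant Hdac1 than with FK228, where 4 were called without it, and moved no other count of calls by over 1.5 times.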
